A study of Mus musculus with 2 samples.

Results

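The genes described here encode the machinery that writes, reads and removes chromatin marks or moves nucleosomes: Polycomb repressive complexes 2 and 1 (PRC2 and PRC1), their trithorax and demethylase counterparts, the DNA methylation and demethylation enzymes, the histone deacetylases, and the SWI/SNF and related remodellers. The members were chosen by name from these complexes, though with earlier results of these data known. They were matched through the gene identifier without its version. All 47 were found among the 43346 genes of the tables, of which 21474 are annotated as protein-coding. The RNA came from stomachs of B6NCrl mouse embryos at embryonic day 15.5, with both sexes pooled and no treatment or genetic change named in the labels. Replicate 1 pooled 78 embryos and replicate 2 pooled 62, and these 2 libraries form the only group. Nothing in the labels separates the pools by condition, so the data give levels and the difference between the pools.

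PRC2 places methyl groups on lysine 27 of histone H3, and PRC1 binds that mark through its CBX subunits or attaches ubiquitin to histone H2A through its RING proteins, and both hold developmental genes silent. Maintenance DNA methylation copies existing marks behind the replication fork, whereas the de novo enzymes set new marks and the TET enzymes oxidise them. In the fetal gut, Polycomb proteins, deacetylases and SWI/SNF remodellers are known to act on the choice between progenitor growth and differentiation of epithelium and mesenchyme.

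Expected counts summed to 44038879 in replicate 1 and 45625704 in replicate 2. The members took between 293 and 29570 counts in replicate 1 and between 261 and 32550 in replicate 2. Added ERCC control RNAs made up 1.88% and 2.999% of all counts. Markers of the tissue and of its neighbours were present in both pools, with all 9 squamous forestomach markers, all 7 smooth muscle markers, all 9 liver markers and all 8 exocrine pancreas markers at 1 TPM or more. TPM, a relative transcript abundance, is a level corrected for transcript length, so it can be compared between genes of a library. A pool mixes many cell types, and more cells of a type and more RNA per cell cannot be told apart in it. Errors are SDs over both libraries (n = 2). Counting intervals come from rounded expected counts with 1 library on each side, so they cover counting error only. The tables record no molecular identifiers, so repeated copies of a molecule cannot be removed and these intervals may be too narrow.

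All 47 members reached 1 TPM in both libraries, against 64.5% of all protein-coding genes (13846 of 21474). Their median level was 20.0 TPM in replicate 1 and 20.2 TPM in replicate 2. The median of all protein-coding genes was 5.70 and 5.72 TPM, and that of the detected ones was 17.5 and 17.9 TPM. The members were therefore spread across the range of expressed genes, from Hdac9 at 2.20 and 1.95 TPM to Rbbp7 at 483 and 519 TPM. Only 6 members averaged 100 TPM or more, namely Rbbp7, Rbbp4, Hdac1, Hdac2, Smarcb1 and Dnmt3a, and 4 stayed below 5 TPM in both libraries, namely Phf19, Cbx7, Sirt1 and Hdac9. Within each complex the order of levels was nearly the same in both pools. Of 41 neighbouring pairs in these orders, 2 swapped places between the libraries, Cbx6 with Rnf2 and Hdac11 with Hdac8. A further 4 kept their order within each library but had ranges that overlapped across the libraries: Cbx2 and Bmi1, Kmt2d and Kmt2a, Hdac7 and Hdac10, and Hdac10 and Hdac6. The median coefficient of variation between the libraries was 4.3%, and the highest was 18.7%, for Tet1.

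**Figure D1:**
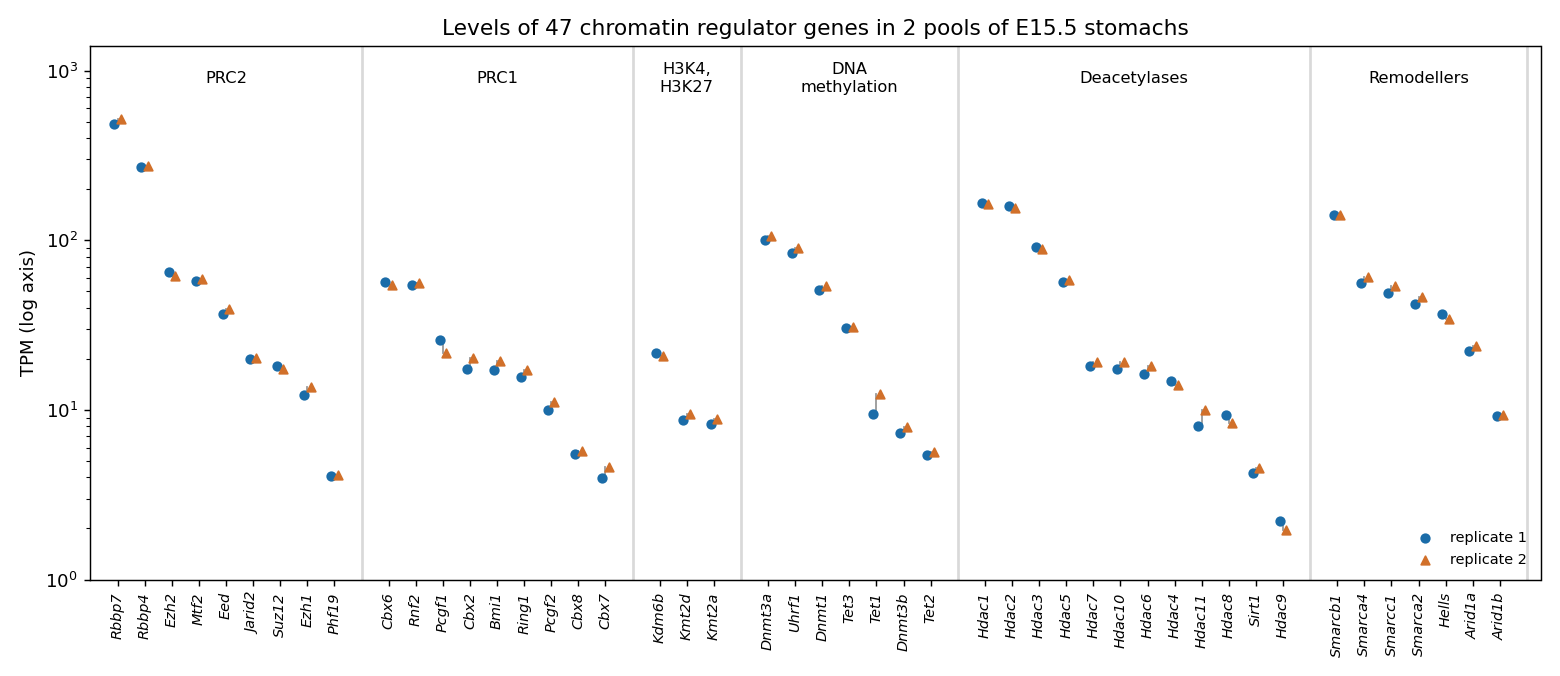
TPM (log axis) of each of the 47 members in replicate 1 (circles) and replicate 2 (triangles), ordered by mean level within each functional group, with a thin line joining the values of a gene. The histone chaperones Rbbp7 and Rbbp4 stand at the top of PRC2, Hdac1 and Hdac2 at the top of the deacetylases, and both libraries lie close together for nearly every gene.

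Among PRC2 members the shared histone chaperones were the most abundant and an accessory factor the least. Rbbp7, a histone H4-binding WD40 protein on chromosome X (mm10, 162760402 to 162779092), was at 483 and 519 TPM. Its relative Rbbp4 (chromosome 4, 129307100 to 129335370) was at 269 and 273 TPM. Both proteins also serve deacetylase and chromatin assembly complexes, so their RNA is not a measure of PRC2 alone. The methyltransferase Ezh2 (chromosome 6, 47530139 to 47595341) was at 65.3 and 61.9 TPM, the 82.2 percentile of detected protein-coding genes. Ezh1, the alternative catalytic subunit that is known from resting cells, was at 12.2 and 13.7 TPM. Ezh2 exceeded Ezh1 in both libraries, with a log2 TPM ratio of 2.29 ± 0.17, and made up 84.2% and 81.9% of their summed TPM.

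The core scaffold subunits of PRC2 lay below Ezh2. Eed, which reads the methyl mark and stimulates the enzyme, was at 36.5 and 39.4 TPM, and Suz12, which holds the core together, was at 18.1 and 17.3 TPM. The Eed to Suz12 log2 TPM ratio was 1.10 ± 0.12, although 36.1% and 31.6% of the Suz12 TPM lay on transcripts with a retained intron. Of the accessory subunits that bring PRC2 to its targets, Mtf2 was at 57.7 and 59.3 TPM and its relative Phf19 at 4.08 and 4.16 TPM. Their log2 TPM ratio was 3.80 ± 0.01. Jarid2, a targeting subunit without demethylase activity, was at 20.0 and 20.2 TPM. Of 5 other PRC2 genes on a list of the pathway, 4 were matched and all 4 were detected, led by Lcor (13.1 and 15.3 TPM), which encodes a PRC2-associated protein through an alternative transcript, and by the cofactor Aebp2 (12.4 and 11.6 TPM).

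PRC1 was represented by a dominant RING protein and a dominant CBX reader. Rnf2, the main E3 ligase for histone H2A, was at 54.3 and 56.2 TPM, and Ring1, its alternative, at 15.7 and 17.1 TPM. The log2 TPM ratio was 1.75 ± 0.05, and Rnf2 held 77.5% and 76.7% of their summed TPM. Among the readers, Cbx6 was at 56.9 and 54.2 TPM, Cbx2 at 17.4 and 20.2 TPM, Cbx8 at 5.51 and 5.75 TPM and Cbx7 at 3.99 and 4.58 TPM. Cbx6 therefore held 67.9% and 64.0% of the summed TPM of these 4 readers. The log2 TPM ratio of Cbx6 to Cbx8 was 3.28 ± 0.09, and 4.23 ± 0.12 over protein-coding transcripts, which held 47.5% and 46.2% of the Cbx8 TPM. That of Cbx2 to Cbx7 was 2.11 ± 0.01.

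The PCGF subunits, which decide which type of PRC1 forms, were less far apart. Pcgf1, of the variant complex that works with a CpG-binding demethylase, was at 25.7 and 21.7 TPM. Bmi1, of the canonical complex, was at 17.2 and 19.5 TPM, and Pcgf2, its close relative, was at 9.96 and 11.1 TPM. The log2 TPM ratio of Bmi1 to Pcgf2 was 0.79 ± 0.02, and all 3 genes kept their order in both pools. All 18 other PRC1 genes on the pathway list were detected, led by the RYBP relative Yaf2 (61.4 and 58.8 TPM) and by Bap1 (48.9 and 55.1 TPM), the deubiquitinase that removes the PRC1 mark.

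Counterparts of Polycomb were expressed at moderate to low levels. Kdm6b, a demethylase of H3 lysine 27, was at 21.7 and 20.7 TPM. The large H3 lysine 4 methyltransferase genes Kmt2d (8.70 and 9.50 TPM) and Kmt2a (8.30 and 8.82 TPM) had overlapping ranges, and their log2 TPM ratio was 0.09 ± 0.03. All 13 other trithorax genes on the list were detected, led by the shared core subunits Dpy30 (150 and 162 TPM) and Ash2l (66.9 and 74.6 TPM), both of which lay above every member of this group.

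In the DNA methylation group, the de novo enzyme Dnmt3a had the highest TPM summed over all its transcripts, and Dnmt3b was near the lowest. Dnmt3a (chromosome 12, 3806007 to 3914443) was at 100 and 106 TPM. The maintenance enzyme Dnmt1 (chromosome 9, 20907209 to 20959888) was at 50.9 and 53.5 TPM, and Uhrf1, which brings Dnmt1 to hemimethylated DNA, was at 84.3 and 89.9 TPM. Dnmt3b (chromosome 2, 153649450 to 153687730), the de novo enzyme known from the early embryo, was at 7.27 and 7.89 TPM. Dnmt3a exceeded Dnmt3b by a log2 TPM ratio of 3.75 ± 0.03, and Dnmt3b made up only 4.58% and 4.72% of the summed TPM of the 3 methyltransferases. Dnmt1 lay below Dnmt3a by a log2 TPM ratio of -0.98 ± 0.00. The ratio was -0.765 ± 0.006 over protein-coding transcripts and -0.548 ± 0.013 in counts scaled to library size without a length correction. Of the Dnmt3a TPM, transcripts of the 908-codon form held 22.02 and 23.95 and those of the 689-codon form 34.22 and 34.76. The rest lay on partial or other transcripts. Over protein-coding transcripts Dnmt3a was at 86.9 and 90.7 TPM and Uhrf1 at 81.1 and 84.8 TPM. This level of Dnmt3a still includes partial transcripts, such as Dnmt3a-206 at 20.2 and 17.9 TPM. Neither the 908-codon nor the 689-codon form alone reached the level of Uhrf1.

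Among the TET enzymes, Tet3 was highest at 30.3 and 30.6 TPM and held 67.0% and 63.0% of their summed TPM. Tet1, with the widest relative spread of all members, was at 9.49 and 12.4 TPM, and Tet2 was at 5.44 and 5.65 TPM. The log2 TPM ratio of Tet3 to Tet1 was 1.48 ± 0.26, and 2.10 ± 0.22 over protein-coding transcripts. That of Tet2 to Tet1 was -0.96 ± 0.23, but it turned to 0.25 ± 0.13 when only transcripts annotated as protein-coding were summed. Of 14 other DNA methylation genes on the list, 11 were detected, led by the corepressor Trim28 (179 and 207 TPM) and Mbd3 (168 and 176 TPM), a relative of the methyl-CpG readers. Those below 1 TPM in both libraries included Dnmt3l (0.71 and 0.28 TPM), the germ-line cofactor of de novo methylation, and the oocyte factor Dppa3 (0 and 1 counts). A count of 0 here allows up to 3 counts.

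The leading Dnmt3b transcript in both libraries was a form that leaves out coding exons. In the annotated form Dnmt3b-207, with 23 exons, exon 10 (60 bases) lies before the catalytic domain, and exons 21 and 22 (70 and 119 bases) encode part of that domain. Proteins without the latter pair are known as accessory forms without catalytic activity. These exons decide which form a read can support, so they are shown with 15 bases of the joined neighbouring exons on each side, read from the GENCODE M21 transcript (mm10, plus strand), with the exon in capitals.
Exon 10, chr2:153670849-153670908: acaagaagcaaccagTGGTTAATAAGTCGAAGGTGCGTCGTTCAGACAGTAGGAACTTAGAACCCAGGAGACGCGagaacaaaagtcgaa
Exon 21, chr2:153683608-153683677: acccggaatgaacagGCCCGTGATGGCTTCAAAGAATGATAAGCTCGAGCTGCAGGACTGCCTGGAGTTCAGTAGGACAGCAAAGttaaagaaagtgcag
Exon 22, chr2:153684359-153684477: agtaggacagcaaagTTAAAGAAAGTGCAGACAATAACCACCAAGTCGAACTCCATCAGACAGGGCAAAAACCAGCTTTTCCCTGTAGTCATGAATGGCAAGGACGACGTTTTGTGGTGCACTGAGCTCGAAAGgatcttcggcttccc

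The leading transcript, Dnmt3b-206, lacks all 3 of these exons, and its junctions join the flanking exons directly, as shown here with the downstream exon in capitals.
Dnmt3b-206 across exon 10: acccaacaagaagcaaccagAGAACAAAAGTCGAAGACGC
Dnmt3b-206 across exons 21 and 22: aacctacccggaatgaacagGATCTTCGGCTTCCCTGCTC
The tables assign whole fragments to transcripts and do not give reads on these junctions.

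Dnmt3b-206 held 41.8% of the gene's TPM in replicate 1 and 54.6% in replicate 2. Dnmt3b-205, which lacks the same exons, held 20% and 0%. The full-length form Dnmt3b-207 held 29.4% and 25.8%, and Dnmt3b-201, also with all 3 exons, held 0.05% and 9.7%. The switch of Dnmt3b-205 and Dnmt3b-201 between a share at or near 0 and a larger share was much smaller in the authors' posterior-mean estimates, where Dnmt3b-205 held 9.1% and 4.34% and Dnmt3b-201 held 5.21% and 5.5%. Together, transcripts without exons 21 and 22 held 61.8% and 54.6% of the gene's TPM, or 58.2% ± 5.11. The same share was 52.3% by posterior-mean TPM and 64.6% by expected counts. Among coding transcripts alone, forms without the exon pair held 67.7% and 60.6% of the TPM, and by posterior-mean TPM 62.1% and 55.7%. By posterior-mean TPM of the whole gene the share was 55.4% in replicate 1 and 49.2% in replicate 2, so it did not exceed 50% in each library under each of these measures. These shares rest on 786 and 853 expected counts for the whole gene. In each library the deposited credible bounds of Dnmt3b-206 (1.84 to 4.02 and 2.41 to 4.12 TPM) overlapped those of Dnmt3b-207 (0.674 to 2.13 and 0.975 to 2.76 TPM).

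Dnmt3a and Dnmt1 were also read from more than 1 annotated start. The long form of 908 codons, encoded by Dnmt3a-201 and a minor transcript of the same coding length, held 21.9% and 22.7% of the gene's TPM. Dnmt3a-203 and Dnmt3a-205, which begin further downstream (at 3891744 and 3891728) and encode a short form of 689 codons, held 34.1% and 32.9% of the TPM. By expected counts the order turned, with 54.3% and 55.6% on the long form and 32.4% and 30.7% on the short form, and TPM divides by length, which is 9685 bases for Dnmt3a-201. A partial transcript of 827 bases, Dnmt3a-206, took a further 20.2% and 17.0% of the TPM. For Dnmt1, the somatic transcript Dnmt1-201 (1620 codons) held 72.2% and 69.5% of the TPM. Dnmt1-202, annotated from a start 6909 bases upstream (at 20959888) and with 1501 codons, held 26.1% and 28.8%, or 13.3 and 15.4 TPM, and its posterior-mean shares were 26.2% and 28.3%. An upstream start and a shorter protein are known for the oocyte form of Dnmt1. Reads that distinguish the start of Dnmt1-202 were not counted separately in the tables, so its share is an estimate of the authors' quantification.

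**Figure D2:**
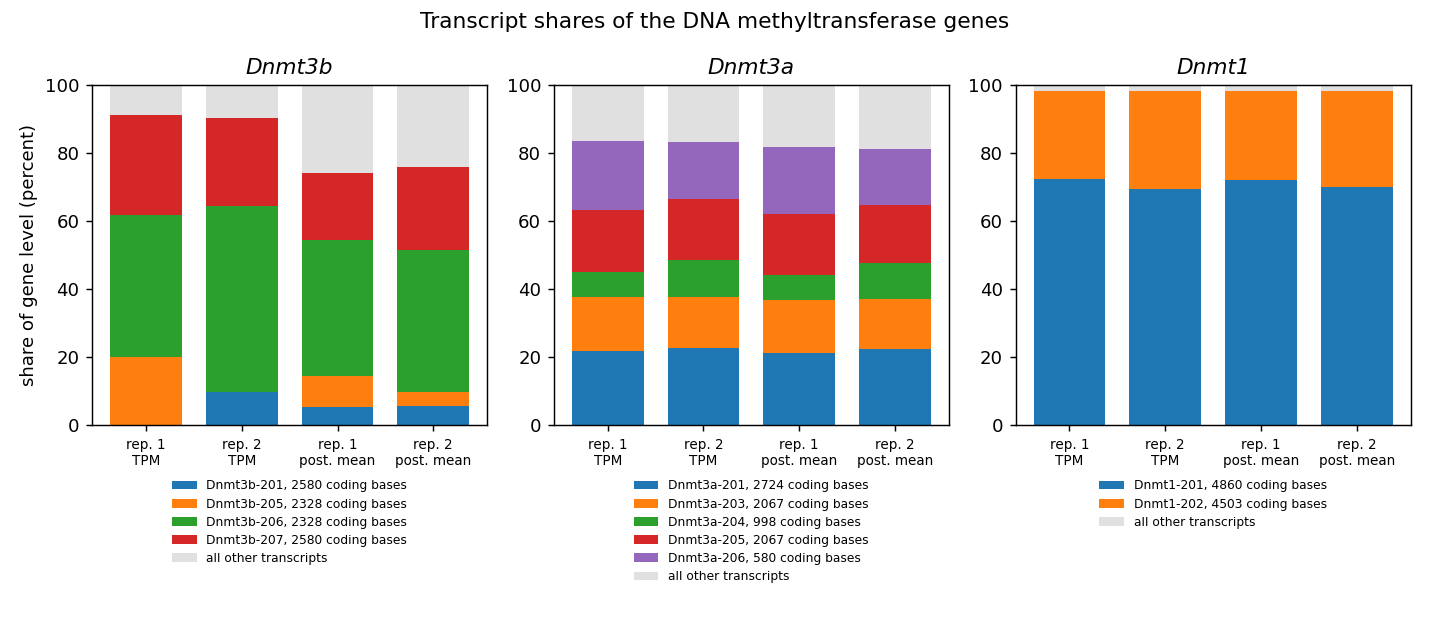
Share of the gene level in percent on the larger protein-coding transcripts of Dnmt3b, Dnmt3a and Dnmt1, stacked for each library by TPM and by posterior-mean TPM, with all other transcripts in grey. Those drawn reached 10% of TPM in either library, apart from Dnmt3b-201, which reached 9.7% in replicate 2. Dnmt3b-206 is the largest segment of Dnmt3b in each bar (41.8% and 54.6% by TPM), and the bars of Dnmt1 are alike in both libraries and by both estimates.

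Deacetylases were led by class I. Hdac1 was at 165 and 164 TPM, Hdac2 at 159 and 156 TPM and Hdac3 at 91.7 and 89.2 TPM. Hdac1 and Hdac2 are the paired catalytic subunits of the NuRD, Sin3 and CoREST complexes, and Hdac3 works in the NCoR complexes. The log2 TPM ratio of Hdac2 to Hdac1 was -0.06 ± 0.01, and it was 0.04 ± 0.02 over protein-coding transcripts, so their levels were about equal with no stable order. Hdac8, the remaining class I enzyme, known to act on cohesin, was at 9.36 and 8.33 TPM. The 4 class I genes summed to 425 and 417 TPM, class IIa to 92.2 and 93.6 TPM and the 2 class IIb genes to 33.6 and 37.3 TPM.

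Class IIa enzymes, which shuttle between nucleus and cytoplasm and bind MEF2 factors, differed widely. Hdac5 was at 57.1 and 58.4 TPM, Hdac7, known from endothelium, at 18.1 and 19.2 TPM, Hdac4 at 14.8 and 14.1 TPM and Hdac9 at 2.20 and 1.95 TPM. The log2 TPM ratio of Hdac5 to Hdac4 was 1.99 ± 0.07, but it was 1.37 ± 0.06 over protein-coding transcripts and 0.48 ± 0.08 in counts scaled to library size without a length correction. Hdac7 exceeded Hdac9 by 3.11 ± 0.18 on the log2 TPM scale, and by 2.34 ± 0.23 over protein-coding transcripts. Of the others, the cytoplasmic tubulin deacetylase Hdac6 was at 16.3 and 18.2 TPM and Hdac10, a polyamine deacetylase, at 17.3 and 19.0 TPM. Protein-coding transcripts of Hdac10 held only 5.97 and 8.63 TPM, against 14.9 and 17.2 TPM for those of Hdac6. Hdac11, the class IV enzyme, was at 8.07 and 10.0 TPM, and the NAD-dependent Sirt1 was at 4.27 and 4.53 TPM. All 21 other deacetylase genes on the list, which include corepressor subunits, were detected, led by the corepressors Ncor1 (114 and 126 TPM) and Sin3b (115 and 118 TPM).

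Among the remodeller members of the set, the SWI/SNF core subunit Smarcb1 was the most abundant, at 140.91 and 140.89 TPM. Smarca4 and Smarca2 encode the alternative ATPases. Smarca4 was at 56.3 and 60.5 TPM and Smarca2 at 42.1 and 46.6 TPM, with a log2 TPM ratio of 0.40 ± 0.03 and with Smarca4 at 57.2% and 56.5% of their summed TPM. Over protein-coding transcripts this log2 ratio was 1.26 ± 0.02, since 40.7% and 43.0% of the Smarca2 TPM lay on transcripts annotated as targets of nonsense-mediated decay. That annotation is from GENCODE M21, where the largest of them, Smarca2-215, has 2018 bases against 1460 as quantified. The label may therefore not hold for the transcript that was counted.

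The core scaffold Smarcc1 was at 48.9 and 53.6 TPM. Arid1a, the DNA-binding subunit of the BAF complex, was at 22.1 and 23.8 TPM, and its alternative Arid1b was at 9.17 and 9.30 TPM, a log2 TPM ratio of 1.30 ± 0.06. Hells, a remodeller needed for DNA methylation of repeats and known from dividing cells, was at 36.9 and 34.2 TPM. All 20 other SWI/SNF genes and all 10 other remodellers on the lists were detected. Smarce1 (172 and 164 TPM) and the actin-related Actl6a (105 and 110 TPM) led the former, and Atrx (137 and 146 TPM) and the ISWI ATPase Smarca5 (59.1 and 59.7 TPM) led the latter.

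**Figure D3:**
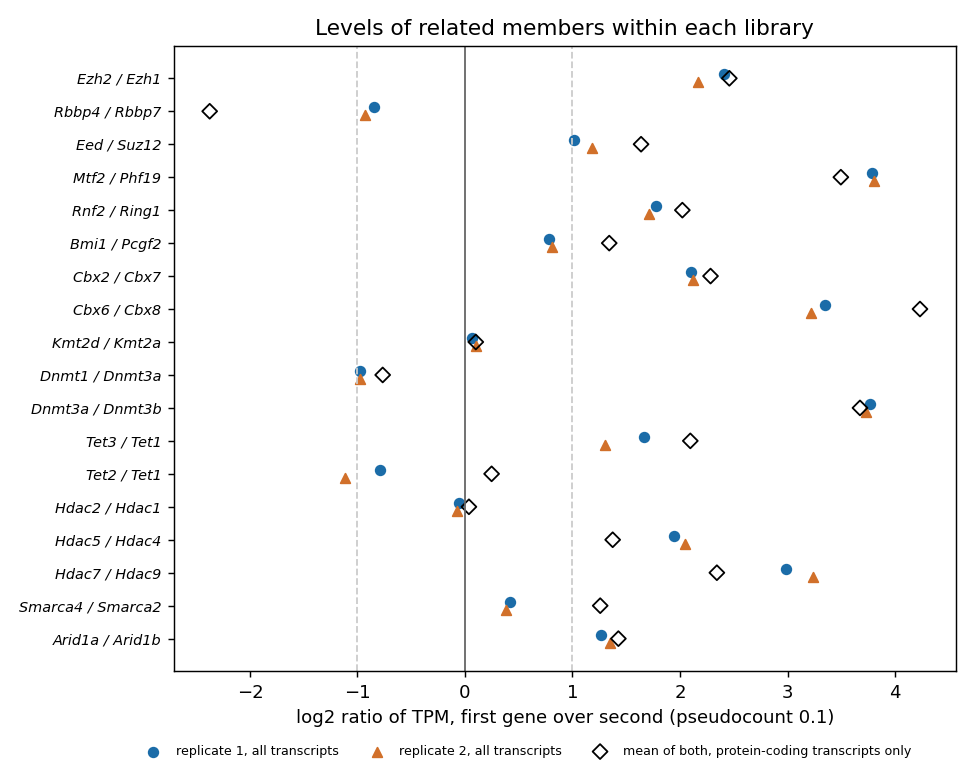
Log2 ratio of TPM within each library for 18 pairs of related members, for replicate 1 (circles), replicate 2 (triangles) and, as the mean of both, protein-coding transcripts only (diamonds); dashed lines mark a ratio of 2-fold. All 18 pairs have the same sign in both libraries and 11 have a mean past 2-fold, while the diamonds of Tet2 / Tet1 and Hdac2 / Hdac1 lie across 0 from their circles and triangles.

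All 18 pairs had the same sign in both libraries with a mean beyond the SD, and 11 were past 2-fold. In counts scaled to library size without a length correction no pair reversed, but 10 moved by more than 1.5-fold, among them the log2 ratios of Ezh2 to Ezh1 (1.58), Eed to Suz12 (0.45), Mtf2 to Phf19 (2.76), Rnf2 to Ring1 (2.45), Bmi1 to Pcgf2 (2.15) and Kmt2d to Kmt2a (0.96). No test was made, since the smallest exact p that 2 values allow is 0.5. The level of a gene can include transcripts that encode no full protein. Those annotated as protein-coding also include partial ones, such as Tet3-204 (469 bases, 6.55 and 5.41 TPM) and Hdac5-214 (427 bases, 8.02 and 8.68 TPM). Shares and ratios over protein-coding transcripts therefore still hold partial transcripts. The 47 members had 328 transcripts in the tables, and the median share of TPM on protein-coding ones was 90% and 89.2%. It was 90% or more in both libraries for 23 members and under 50% in both for 5, namely Rbbp4, Cbx8, Tet1, Hdac10 and Sirt1.

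For 6 members the leading transcript by TPM was not annotated as protein-coding in either library. Rbbp4-203, a processed transcript of 722 bases, held 63.6% and 62.4% of the Rbbp4 TPM but 20.2% and 19.4% of its counts, and the protein-coding transcripts of Rbbp4 summed to 94.0 and 99.0 TPM. Tet1-202, of 1505 bases, held 54.9% and 59.2% of the Tet1 TPM but 13.1% and 15.3% of its counts, which left 4.28 and 5.06 TPM on coding transcripts. Tet3-201 held 31.5% and 35.6% of the Tet3 TPM. Sirt1-205, annotated as a target of nonsense-mediated decay, held 57.1% and 59.0% of the Sirt1 TPM and most of its counts as well (64.7% and 62.9%). The retained-intron transcript Hdac7-211 held 41.0% and 37.3% of the Hdac7 TPM, and Smarca2-215 held 30.8% and 32.4% of the Smarca2 TPM. Short transcripts thus raised the TPM of Rbbp4 and Tet1 far more than their counts, whereas for Sirt1 both measures gave the same leading transcript.

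In 2 members the leading transcript by TPM differed between the pools. Pcgf1-201 held 58.2% and 30.9% of the Pcgf1 TPM and Pcgf1-202 held 23.5% and 48.4%, on 563 and 490 counts for the gene. Posterior-mean shares, from the same reads, differed the same way, with 50.01% and 25.9% for Pcgf1-201 and 26.4% and 49.0% for Pcgf1-202. The deposited credible bounds overlapped between the pools for both transcripts. They were 8.73 to 16.7 and 1.03 to 10.1 TPM for Pcgf1-201, and 3.38 to 10.3 and 6.42 to 15.5 TPM for Pcgf1-202. Hdac5-202 (26.6% and 20.4%) and Hdac5-204 (14.1% and 20.5%) were nearly equal in replicate 2, and by posterior-mean TPM Hdac5-202 led in both pools (26.2% and 19.7%, against 13.0% and 19.6% for Hdac5-204). There is 1 library on each side, so neither difference has a replicate check.

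No member differed between the pools by 1.5-fold relative to the typical gene. The ratio of replicate 2 to replicate 1 was taken from counts scaled by the TMM method, and 0 of 47 members passed this limit, against a background of 17.1% of 20918 genes that had 10 or more counts over both libraries (4.74% higher and 12.4% lower in replicate 2). Scaled by the added control RNAs instead, 35 members passed, all lower in replicate 2, beside 71.1% of all genes, and the median log2 ratio was -0.64 for members and -0.68 for all genes. Low counts differ more by counting error, and every member had at least 554 counts in the sum. Among the 12502 genes with at least 500 counts the background was 3.19%. At that share, a set of this size holds few such genes, so the count of 0 is close to the background. The median absolute log2 ratio of the members was 0.08, beside 0.09 for those genes.

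The members' log2 ratios ran from -0.24 for Pcgf1 to 0.29 for Cbx7, with a median of 0.04. Of the 47, 31 were higher and 16 lower in replicate 2, where 55.7% of genes with 500 or more counts were higher. With control RNA scaling all 47 were lower. The 95% counting interval excluded 0 for 24 members (16 higher and 8 lower), beside 48.0% of those genes. Cbx7, with 387 and 487 counts, was higher by a log2 ratio of 0.29 (interval 0.09 to 0.49), Hdac11, with 567 and 707 counts, by 0.28 (0.12 to 0.44) and Tet1, with 1724 and 2093 counts, by 0.24 (0.14 to 0.33). Pcgf1 was lower by -0.24 (-0.42 to -0.07), Cbx6 by -0.15 (-0.20 to -0.10) and Kdm6b by -0.15 (-0.21 to -0.09). Ezh1 (0.19) and Ezh2 (-0.09) had ratios of opposite sign, each with an interval that excluded 0. These intervals hold no spread between embryos or dissections, so they do not show a difference between kinds of pools.

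**Figure D4:**
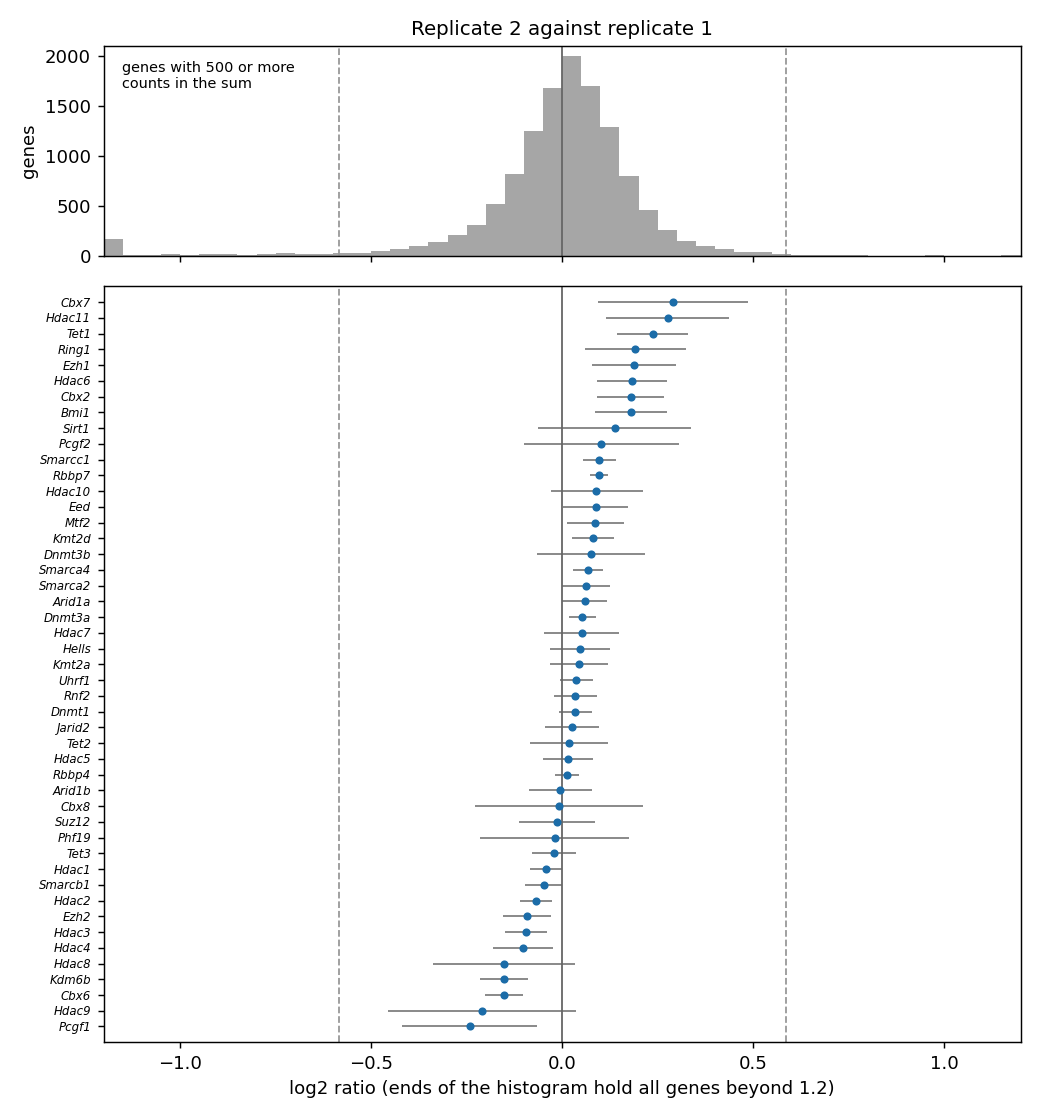
Log2 ratio of replicate 2 to replicate 1: the number of genes with 500 or more counts in each bin (top) and each of the 47 members as a point with its 95% counting interval (bottom); dashed lines mark 1.5-fold. All members lie between the dashed lines, from Pcgf1 at -0.24 to Cbx7 at 0.29.

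Several tissue markers did differ between the same pools. Summed squamous markers were at 2969 and 1573 TPM (9 of 9 lower in replicate 2, 7 past 1.5-fold), liver markers at 2315 and 1123 TPM (9 of 9 lower, 7 past 1.5-fold) and red cell markers at 41111 and 23036 TPM (9 of 9 lower, all past 1.5-fold). Exocrine pancreas markers were at 8171 and 11340 TPM, with 8 of 8 higher in replicate 2, 1 of them past 1.5-fold, and a median log2 ratio of 0.50. Proliferation markers, at 2206 and 2235 TPM in sum with a median log2 ratio of 0.02, and smooth muscle markers, at 3412 and 3458 TPM, differed little, with none past 1.5-fold. The part of these tissues in the small differences among the members was not tested. Of the 5 other PRC2 genes, 18 PRC1 genes, 13 trithorax genes, 14 DNA methylation genes, 21 deacetylase genes, 20 SWI/SNF genes and 10 remodellers on the lists, only Dnmt3l passed 1.5-fold among those with at least 10 counts, with 16 and 6 counts.

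The start regions of the members were rich in CpG dinucleotides, which Polycomb and DNA methylation enzymes are known to act on. RefSeq promoters (GRCm38.p6, 250 bases before to 50 after the start) were matched for 41 of the 47 genes, with 53 promoters. Pcgf1, Hdac3, Kdm6b, Cbx2, Hdac10 and Hdac1 were not matched. The median GC content was 66.0% against 52.7% over all 32851 promoters, and the median ratio of observed to expected CpG was 0.839 against 0.384. A promoter with at least 50% GC and a ratio of at least 0.6 was present in 37 of 41 genes (90.2%), against 36.0% of all 27025 genes in the table. That background includes silent genes, so it is not a comparison with genes of like level.

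Hdac8, Hdac9, Pcgf2 and Tet3 had no such promoter. Tet2, at 5.44 and 5.65 TPM, had the highest ratio of observed to expected CpG, 1.17, with 57 CpG in 300 bases. Rbbp4 and Hdac9 stand near the ends of both scales, level and CpG ratio. They were picked for this contrast, and the relation of level to CpG ratio over all members was not tested. The 120 bases before their starts are shown with each CG in capitals (minus strand).
Rbbp4, chr4:129335371-129335490: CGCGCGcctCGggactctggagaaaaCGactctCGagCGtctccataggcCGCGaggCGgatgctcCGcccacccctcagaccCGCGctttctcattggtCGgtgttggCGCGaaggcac
Hdac9, chr12:34917096-34917215: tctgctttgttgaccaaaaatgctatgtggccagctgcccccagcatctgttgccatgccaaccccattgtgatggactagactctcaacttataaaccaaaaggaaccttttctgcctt
The Rbbp4 stretch holds 16 CG and the Hdac9 stretch 0.

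**Figure D5:**
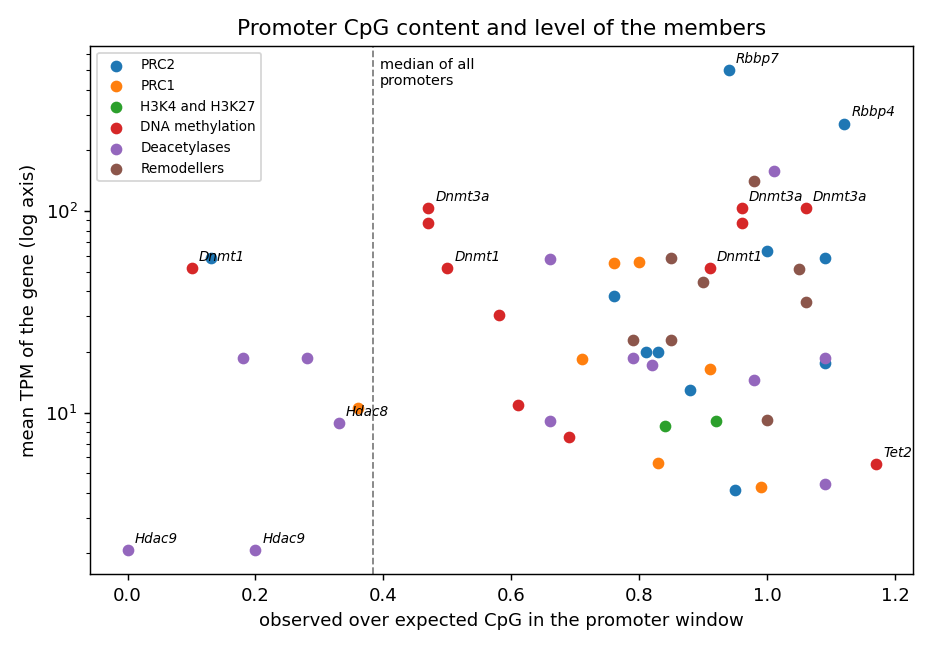
Observed over expected CpG in each of the 53 promoter windows (horizontal) against the mean TPM of the gene (vertical, log axis), coloured by functional group; a gene with several promoters appears once for each, and the dashed line is the median of all promoters (0.384). Most points lie to the right of the line, and both Hdac9 windows lie to its left at the lowest level.

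A pair of motifs bound by E2F factors, TTTCGCGC and TTTGGCGC, was searched on both strands because Ezh2, Dnmt1 and Uhrf1 are known E2F targets. Either motif occurred in promoters of 3 members, Dnmt1, Ezh2 and Uhrf1, which is 7.32% of the 41 matched genes, against 0.929% of all genes. The motifs were chosen with these targets in mind, so the count is a description. Both motifs hold CG, and 90.2% of the matched members had a CpG-rich promoter against 36.0% of all genes. The background is therefore not one of like base composition, and enrichment of the motifs was not tested. In Ezh2 the motif lies after the start. In Dnmt1 motifs lie before and after the start of a matched promoter, the former inside the first exon of Dnmt1-201. That start belongs to a minor transcript, which held 1.67% and 1.70% of the Dnmt1 TPM. The matched promoter at the start of Dnmt1-201, which held 72.2% and 69.5%, had 0 motifs. The matched promoter at the start furthest upstream also had 0. The Uhrf1 stretch is shown because its motif, in capitals, lies 177 bases upstream of the start of this promoter (plus strand). Uhrf1 has another promoter in the table, whose start lies before the motif, so the motif is downstream of that start.
Uhrf1, chr17:56304072-56304191: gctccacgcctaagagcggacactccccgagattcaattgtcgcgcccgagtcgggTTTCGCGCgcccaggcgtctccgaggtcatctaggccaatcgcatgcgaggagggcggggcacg
All 3 genes were among the upper levels of their groups, between 50.9 and 89.9 TPM, and a match of letters shows no binding.

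Some levels are uncertain because other genes share their sequence. Near-identical copies (at least 500 aligned bases at 90% identity or more) at other places were found for 5 members, Hdac1, Rbbp7, Uhrf1, Bmi1 and Pcgf1. The pseudogene Gm10093, 99.4% identical to Hdac1, was at 10.7 and 1.71 TPM, Gm6382, 97.1% identical to Rbbp7, at 8.12 and 0.97 TPM, and Gm5648, 98.3% identical to Uhrf1, at 2.18 and 0.39 TPM. All 3 pseudogenes were lower in replicate 2, and each was small beside its parent gene. Exons of 21 members overlap those of another gene, for 18 of them on the opposite strand, and the strand setting of the counting was not given in the sources used here. Cbx7 overlaps Apobec3 (29.2 and 36.0 TPM), which lies above it in level and also had the higher value in replicate 2. Mtf2 overlaps Tmed5 (36.4 and 37.8 TPM), Rnf2 overlaps Trmt1l (34.9 and 36.5 TPM) and Smarcc1 overlaps Dhx30 (29.5 and 30.9 TPM), so reads at those ends cannot be told apart without strand.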

How the data were processed

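Per the file headers, the authors deposited a gene and a transcript table for each of 2 libraries, with expected counts, TPM, FPKM and posterior-mean values. The deposited isoform shares are in percent, and the deposited credible bounds are score columns that entered no test. The annotation was M4 on mm10, per the text deposited beside the tables. The aligner, the quantification program and the strand setting are not given in the sources used here.

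Symbols, coordinates and transcript types came from GENCODE M21 (42462 of 43346 genes matched, 98.0%). TMM (edgeR 4.0.16) and DESeq2 1.42.0 gave library sizes only. Ratios used a prior count of 0.5, list medians all matched genes, and pair ratios a pseudocount of 0.1 TPM. Intervals are exact (Clopper-Pearson) binomial intervals at 95%. On simulated counts for 12502 genes, 200 changed ones were all recovered, and 95.1% of intervals held the true value. In the real libraries the interval excluded 0 for 48.0% of 12502 genes. The simulation therefore checks the calculation only, and it cannot show how well differences between the real pools are recovered. Copies were found with minimap2 2.31-r1302, and promoters came from RefSeq tables. Python 3.11.15, pandas 2.3.3 and matplotlib 3.10.9 were used.

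All 47 members are named. Of other pathway genes the 2 highest and those below 1 TPM are named, with transcripts at 10% or more of TPM for Dnmt3b and for genes whose leading transcript changed, and the leading ones of Dnmt1, Dnmt3a, Tet1 and Tet3. The other transcripts, copies and overlaps named were chosen after their values were seen. A gene that this rule would name is not reported here. The members and lists were chosen with earlier results of these data known. Whether the pools came from separate litters or days is not stated, so the spread may be partly technical. Other normalizations, limits, units and count minimums were tried as alternatives.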

Additional observations from a re-analysis of the deposited data

How the results depend on the processing

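Members at 1 TPM or more stayed at 47 under FPKM, posterior-mean TPM, summed transcript tables, 0.5 TPM and with either replicate left out (47 to 47), and were 43 at 5 TPM. The 0 members past 1.5-fold stayed 0 with DESeq2 size factors, library totals, a 2-fold limit, protein-coding genes, TPM and other count minimums (100, none, or 500, the last chosen after the data were seen). With spike-in sizes 35 passed, where 71.1% of all genes did and the median of all genes moved to -0.68 (members -0.64). Pairs past 2-fold numbered 11 to 12 with either replicate left out and 14 over protein-coding transcripts, where Tet2/Tet1 turned to 0.248 and Hdac2/Hdac1 to 0.037. No pair reversed under another pseudocount, FPKM, posterior-mean TPM or library-scaled counts without length, though the last moved 16 of 18 by more than their SD. The Dnmt3b share without exons 21 and 22 ran from 54.6% to 61.8% with either replicate left out, and was 52.3% by posterior-mean TPM, 64.6% by counts and 58.9% by posterior-mean TPM of coding transcripts (added after the data were seen). Beyond the construction of each alternative, the cause was not tested. No paired analysis was possible because there is 1 group. With 2 libraries, no difference between the pools has a replicate check.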
